A study of Homo sapiens with 9 samples.

Results

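The zinc finger genes of human chromosome 19 were described in THP-1 cells, a human acute monocytic leukaemia line, grown for 48 h with the plant triterpene lupeol or with solvent. The members were chosen by genomic position, gene symbol and summed count. They are the chromosome 19 genes whose symbol is ZNF and a number alone and whose counts sum to 90 or more over the 9 libraries. There are 213 of them, of 67927 genes with values. Another 28 such genes lay under 90 counts, 10 of them with no count, out of 241 in all. The 9 libraries form 3 groups of 3: THP-1 cells with the lupeol solvent (control), with lupeol at 50 µmol/L (lupeol 50) and with lupeol at 80 µmol/L (lupeol 80). The labels give no other agent or allele, do not name the solvent, and do not say whether replicates are separate cultures. P-values rest on the spread among replicates as labelled, and this spread may be technical. Library totals ran from 26134744 to 38430299 counts.

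As background, C2H2 zinc finger proteins bind DNA through tandem fingers, each a short fold held by a zinc ion on a pair of cysteines and a pair of histidines. Chromosome 19 carries the great tandem arrays of this family in humans, built by repeated gene duplication. Many members join a KRAB domain to their fingers. KRAB recruits TRIM28 (KAP1), which brings the histone methyltransferase SETDB1 and HP1 proteins, and several such proteins hold transposable elements silent.

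The members were selected on summed counts, so levels are given as a description. Just inside it lay ZNF20 with 92 counts over the 9 libraries, ZNF233 with 104 and ZNF599 with 131. Just outside lay ZNF57 with 77, ZNF564 with 74 and ZNF723 with 62. Totals of the members ran to 38762 counts with a median of 2295, and all 213 passed the filter on low counts used for testing. All 213 are protein-coding in GENCODE release 29 and overlap the gene of the same Ensembl ID there, on GRCh38. The label was checked on the translated coding sequences of that release: the median member has 12 C2H2 fingers, with a range of 0 to 32. A match to the KRAB A box was found in 174 members, with a median of 13 fingers, and none was found in 39, with a median of 10. A missing match does not show that the domain is absent.

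Promoters of 3 members are printed from RefSeq (GRCh38.p14, plus strand, 250 bases before to 50 after the annotated start, 5′ to 3′). ZNF526 is the member called lower with lupeol 80, ZNF134 had its 2 doses on opposite sides of control, and ZNF146 had the highest level. Capitals mark 4 motifs on either strand: the CCAAT box, the GC box (GGGCGG), the TATA box (TATAAA) and the ETS core (CCGGAAG).
ZNF526, chr19:42220062-42220361: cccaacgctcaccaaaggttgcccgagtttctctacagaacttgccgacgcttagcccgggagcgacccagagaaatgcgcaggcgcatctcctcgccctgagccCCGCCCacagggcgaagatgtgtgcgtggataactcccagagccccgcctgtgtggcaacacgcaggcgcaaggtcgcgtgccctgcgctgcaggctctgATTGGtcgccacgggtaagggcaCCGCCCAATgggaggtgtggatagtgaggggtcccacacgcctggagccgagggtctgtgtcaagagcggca
ZNF134, chr19:57613992-57614291: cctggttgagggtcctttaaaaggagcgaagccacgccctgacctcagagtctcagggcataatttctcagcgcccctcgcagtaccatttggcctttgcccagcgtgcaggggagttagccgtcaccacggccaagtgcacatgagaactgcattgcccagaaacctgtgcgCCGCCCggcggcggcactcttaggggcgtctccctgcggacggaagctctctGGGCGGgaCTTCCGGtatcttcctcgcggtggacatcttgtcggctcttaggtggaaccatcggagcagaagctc
ZNF146, chr19:36214856-36215155: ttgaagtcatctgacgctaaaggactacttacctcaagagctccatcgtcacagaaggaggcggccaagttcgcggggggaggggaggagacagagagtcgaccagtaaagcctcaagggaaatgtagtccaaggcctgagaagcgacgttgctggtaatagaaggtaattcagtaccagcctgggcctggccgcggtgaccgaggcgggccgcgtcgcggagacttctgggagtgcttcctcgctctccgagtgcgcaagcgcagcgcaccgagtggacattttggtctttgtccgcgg

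The ZNF526 window held 2 matches to CCAAT and 2 to GGGCGG, and one of each overlap. That of ZNF134 held 2 matches to GGGCGG and 1 to CCGGAAG, and that of ZNF146 held no match. RefSeq promoters were found for 186 of the 213 members, in 230 windows. The motif CCGGAAG, the core of sites bound by ETS factors, was found in 41.7% of these windows, in 32.5% of those of ZNF genes on other chromosomes, and in 15.9% of the 16984 windows of genes tested. CCAAT stood in 48.7% of member windows and in 34.4% of those of genes tested. TATAAA stood in 2.61% and 6.68%, and GGGCGG in 65.2% and 63.9%. The median GC content of member windows was 60.7%, against 64.3% for genes tested. Members share ancestry, so these windows are not independent, and a match is not a shown binding site.

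Levels are compared between genes as TMM-scaled CPM (counts scaled to library size) per kilobase of deposited gene length, in control. The median member stood at 1.66 CPM per kb, with quartiles of 0.824 and 3.05, against 2.78 over all 17568 genes tested. ZNF genes on other chromosomes had a median of 3.22 and other chromosome 19 genes 4.07. Members with a KRAB A box had a median of 1.57, against 3.56 for those with no match, so the KRAB class was the lower one. Of the 10 highest members, 7 had no KRAB match. ZNF146, a protein made almost wholly of fingers, led at 31.98 ± 2.75 CPM per kb (SD, n = 3 here and below). ZNF787 followed at 23.3 ± 1.51 and ZNF865 at 16.7 ± 0.56, and these 3 lay farther apart than their SDs. ZNF317 stood at 11.4 ± 0.89 and ZNF428 at 10.6 ± 0.45, closer than their spread. Next came ZNF296 at 8.94 ± 1.1, ZNF700 at 8.81 ± 0.86, ZNF581 at 8.58 ± 0.29, ZNF93 at 8.06 ± 0.26 and ZNF524 at 8.03 ± 0.43. The order of these last 5 is not resolved by their SDs. ZNF93 is known to repress LINE-1 elements, and ZNF524 to bind telomeric repeats. At the low end lay ZNF20 at 0.093 ± 0.043, ZNF471 at 0.071 ± 0.035, ZNF599 at 0.066 ± 0.030, ZNF571 at 0.066 ± 0.030 and ZNF793 at 0.047 ± 0.020. ZNF20 and ZNF793 differed by more than either SD, and the order of those between them is not resolved by their SDs.

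**Figure D1:**
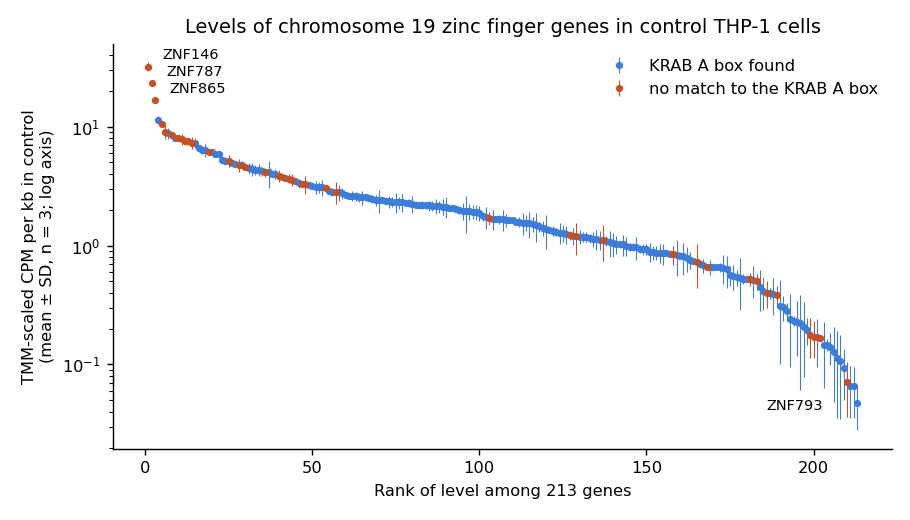
Level of each of 213 chromosome 19 zinc finger genes in control cells (y, TMM-scaled CPM per kb, log axis, mean ± SD of 3 libraries) by rank (x), coloured by whether a KRAB A box was found. ZNF146, ZNF787 and ZNF865 stand at the top with no KRAB match, and ZNF793 is lowest at 0.047 CPM per kb.

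Some copies of the family are close enough for reads to be shared. Of the 213 members, 41 had at least 5% of their 100-base transcript windows in another gene, up to 71.6%, and 121 had none. The share was 48.9% in ZNF20, 25.9% in ZNF417, 13.2% in ZNF808, 12.9% in ZNF581, 11.6% in ZNF700 and 11.4% in ZNF587. Exons of 49 members overlapped another gene by at least 10% on either strand, among them ZNF224 (42.4%), ZNF587 (35.0%), ZNF428 (32.1%) and ZNF529 (24.0%). Values of all these genes are uncertain, since the sources used here do not state how strand or reads with several alignments were treated.

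The first comparison asks which members differ between lupeol 50 and control. None of the 213 passed an adjusted p of 0.05 in edgeR's quasi-likelihood test, and 0% of the 17568 genes tested did. At an unadjusted p under 0.05 there were 16 members, a share of 7.51% against 12.4% of all genes. At that p 7 of 213 were higher, against 1125 of 17568 genes (6.4%), and 9 were lower, against 1058 (6.02%). DESeq2 called 1 of 213 members, against 218 of 17568 genes (1.24%), and limma-voom 0, against 0%. The 3 lupeol 50 libraries lay wholly to one side of the 3 control libraries for 36 members, or 16.9% against 19.2% of all genes. Of the 213, 16 lay above, against 1677 of 17568 genes (9.55%), and 20 below, against 1692 (9.63%). The median log2 fold change was -0.04, with 91 members above 0 and 122 below, against -0.003 over all genes. ZNF genes on other chromosomes had a median of 0.007, with 108 of 208 above 0. In bulk RNA, fewer cells of a type and less RNA per cell cannot be told apart.

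The member of smallest p was ZNF792, a KRAB gene whose function is little described. It stood at 4.92, 4.02 and 3.11 CPM in the lupeol 50 libraries, against 7.53, 7.86 and 6.24 CPM in control. The groups did not overlap, and the log2 fold change was -0.84 ± 0.22 (SE), with an adjusted p of 0.20 in edgeR. DESeq2 called it lower, with an adjusted p of 0.033; over its alternatives the adjusted p ran from 0.033 to 0.80.

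ZNF610, another KRAB gene, had 0.962, 1.38 and 0.853 CPM with lupeol 50, against 2.66, 2.07 and 2.50 CPM in control. Its log2 fold change was -1.18 ± 0.35 with an adjusted p of 0.21 in edgeR, so it was not called. Its lupeol 80 libraries stood at 2.57, 1.63 and 1.27 CPM and overlapped control.

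ZNF536 is known from the nervous system as a repressor of neuronal differentiation genes. It had 3.61, 2.71 and 2.60 CPM with lupeol 50, against 1.33, 1.07 and 2.06 CPM in control. All 3 lupeol 50 libraries were above all controls. The log2 fold change was 1.00 ± 0.35 with an adjusted p of 0.27 in edgeR. ZNF71 and ZNF419 complete the 5 of smallest p, with log2 fold changes of -0.45 ± 0.18 and -0.52 ± 0.21 and adjusted p of 0.32 and 0.34 in edgeR.

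With lupeol 80 against control, 1 member was called, ZNF526, which fell. That is a lower call for 1 of 213 members, against 0.854% of all genes called lower and 1.14% called in either direction. At an unadjusted p under 0.05 there were 19 members, a share of 8.92% against 19.5% of all genes. At that p 9 of 213 were higher, against 1553 of 17568 genes (8.84%), and 10 were lower, against 1878 (10.7%). Libraries of the groups did not overlap for 36 members, or 16.9% against 24% of all genes. Of the 213, 15 lay above, against 1941 of 17568 genes (11%), and 21 below, against 2272 (12.9%). DESeq2 called 3 of 213 members, against 910 of 17568 genes (5.18%), and limma-voom 1, against 174 (0.99%). The median log2 fold change was 0.01, with 108 members above 0 and 105 below, and it was also 0.01 over all genes. ZNF genes on other chromosomes had a median of -0.06 with 3 of 208 called, 1 higher and 2 lower. Other chromosome 19 genes had a median of -0.22, with 741 of 991 below 0 and 21 called, 20 of them lower. Their transcripts had a median GC content of 59.5%, against 44.3% for the members, so these sets also differ in GC content. Whether the fold changes of these sets differ was not tested.

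ZNF526, at chr19:42220312-42228201 on the plus strand, encodes 13 C2H2 fingers with no KRAB match. Its levels were 15.8, 15.1 and 18.5 CPM with lupeol 80, against 26.3, 26.4 and 25.3 CPM in control. Every lupeol 80 library was below every control library. The means were 16.5 ± 1.79 CPM with lupeol 80 and 26 ± 0.60 CPM in control (SD), a log2 fold change of -0.66 ± 0.13 (SE) with an adjusted p of 0.028 in edgeR. The lupeol 50 libraries stood at 23.7, 24.3 and 25.4 CPM, and lupeol 80 against lupeol 50 gave -0.57 ± 0.13 with an adjusted p of 0.081 in edgeR. The transcript has a GC content of 58.1%. With each library's trends on gene length and GC content removed, the log2 fold change against control was -0.44 with an adjusted p of 0.15 in edgeR, so the call was lost. It was also lost without control 1 (adjusted p of 0.15), control A (0.14) or lupeol 50 replicate 3 (0.061), and in a fit of the 2 groups alone (0.059), all in edgeR.

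ZNF432, a KRAB gene, had 18.3, 16.7 and 24.0 CPM with lupeol 80, against 13.8, 11.4 and 13.5 CPM in control. All 3 treated libraries were higher, and the log2 fold change was 0.61 ± 0.18 with an adjusted p of 0.086 in edgeR. ZNF529, also with a KRAB domain, had 16.5, 13.0 and 18.0 CPM, against 11.7, 11.1 and 8.56 CPM in control, a log2 fold change of 0.60 ± 0.19 with an adjusted p of 0.10 in edgeR. DESeq2 called both higher, with adjusted p of 0.030 for ZNF432 and 0.043 for ZNF529. With length and GC trends removed the log2 fold changes were 0.45 for ZNF432 and 0.37 for ZNF529.

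ZNF574 is the neighbour of ZNF526 in a pair set apart from the other members. It had 25.7, 27.4 and 30.2 CPM with lupeol 80, against 39.3, 38.1 and 32.2 CPM in control. The groups did not overlap, and the log2 fold change was -0.40 ± 0.13 with an adjusted p of 0.11 in edgeR. With length and GC trends removed it was -0.13. ZNF71 stood at 6.54, 8.20 and 6.90 CPM with lupeol 80, against 9.96, 10.3 and 10.4 CPM in control. Its lupeol 50 libraries stood at 8.35, 7.40 and 6.67 CPM. Both doses were below every control, with a log2 fold change of -0.50 ± 0.18 and an adjusted p of 0.14 in edgeR for lupeol 80. The largest value of either sign was that of ZNF30, picked after its values were seen, at 1.62 ± 0.57 with an adjusted p of 0.14. It had 1.120, 0.751 and 1.03 CPM with lupeol 80, against 0.152, 0.552 and 0.224 CPM in control.

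For lupeol 80 against lupeol 50, edgeR called 0 members, against 0.0455% of all genes. At an unadjusted p under 0.05 there were 27, a share of 12.7% against 15.4% of all genes. Of these 14 were higher, against 7.23% of all genes, and 13 lower, against 8.18%. DESeq2 called 2, ZNF134 and ZNF526, against 2.5% of all genes, and limma-voom 0, against 0.0398%. Groups did not overlap for 32 members, or 15.02% against 19% of all genes. There were 14 above, against 9.42% of all genes, and 18 below, against 9.63%. The median log2 fold change was 0.02, with 115 members above 0 and 98 below. Without lupeol 80 replicate 1 it was -0.03 (96 above), without replicate 2 it was 0.12 (137 above), and with length and GC trends removed -0.04 (95 above). The edgeR test of any difference among the 3 groups also called 0 members, against 0.233% of all genes, and 22 had an unadjusted p under 0.05, against 19.9% of all genes. The contrasts share libraries and are not independent.

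ZNF134, with 10 fingers and no KRAB match, had 20.8, 19.1 and 18.95 CPM with lupeol 80, against 27.2, 30.2 and 26.03 CPM with lupeol 50. Control stood between them at 23.3, 22.3 and 25.2 CPM, and no library of one group overlapped another group. Lupeol 80 against lupeol 50 gave a log2 fold change of -0.50 ± 0.13 with an adjusted p of 0.099 in edgeR. ZNF865 has 21 fingers and the highest GC content of those named here (71.0%). It had 35.2, 57.8 and 49.6 CPM with lupeol 80, against 66.1, 66.7 and 63.3 CPM with lupeol 50. Its log2 fold change was -0.46 ± 0.15 with an adjusted p of 0.16 in edgeR, and without lupeol 80 replicate 1 it was -0.28.

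ZNF616 had 9.62, 6.76 and 8.20 CPM with lupeol 80, against 12.1, 11.2 and 12.9 CPM with lupeol 50. Its log2 fold change was -0.56 ± 0.18 with an adjusted p of 0.17 in edgeR. Control stood at 8.90, 8.48 and 11.1 CPM, so lupeol 80 overlapped control and every lupeol 50 library lay above it. ZNF274, a KRAB protein known to bring TRIM28 and SETDB1 to the 3′ ends of zinc finger genes, had 45.8, 55.9 and 54.8 CPM with lupeol 80, against 68.4, 67.9 and 62.7 CPM with lupeol 50. Its groups did not overlap, with a log2 fold change of -0.35 ± 0.12 and an adjusted p of 0.20 in edgeR. None of the 213 members stepped through control, lupeol 50 and lupeol 80 with all libraries separated at both steps, in either direction. Of all 17568 genes tested, 77 did so upward and 94 downward. Such genes were thus rare among all genes too, so finding none among the members does not set them apart.

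**Figure D2:**
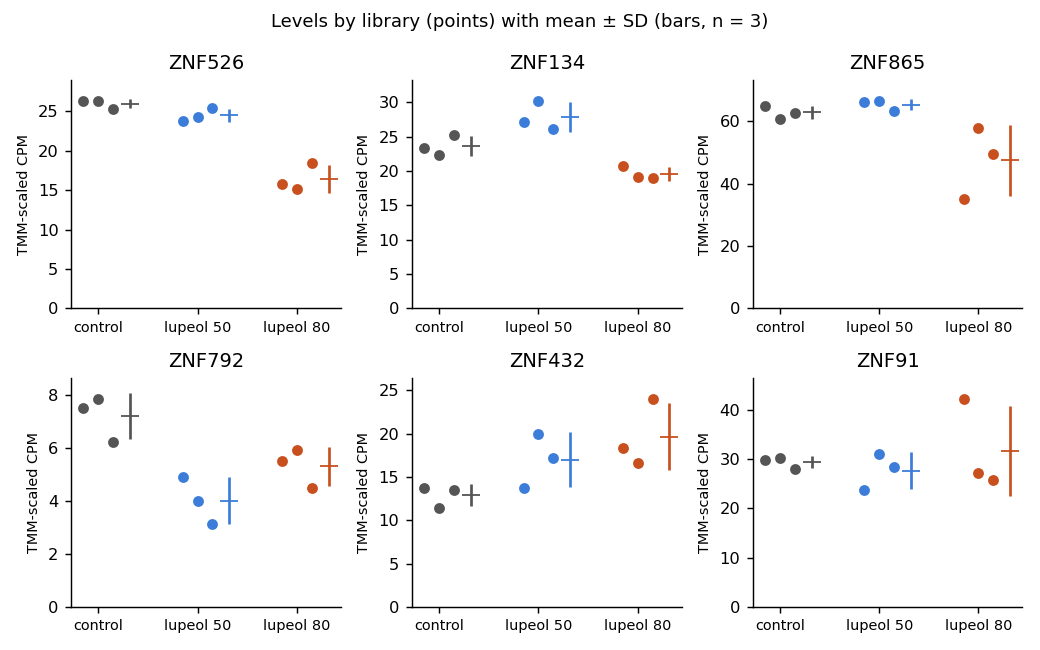
TMM-scaled CPM (y) by library for 6 members in control, lupeol 50 and lupeol 80 (x). Points are libraries and bars are the mean ± SD of 3. ZNF526 is lower in all 3 lupeol 80 libraries (15.1 to 18.5 CPM) than in control (25.3 to 26.4 CPM), and ZNF91 is high in a single lupeol 80 library at 42.3 CPM.

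The 16 members of known background did not pass the edgeR test in any contrast. ZNF91, a KRAB protein with 32 fingers known to silence SVA elements, had 42.3, 27.2 and 25.7 CPM with lupeol 80, against 29.8, 30.3 and 28.0 CPM in control. Lupeol 80 replicate 1 alone stood above control, and the log2 fold change was 0.11 ± 0.17. ZNF93 had 56.3, 42.2 and 50.4 CPM with lupeol 80, against 45.4, 43.3 and 46.1 CPM in control, a log2 fold change of 0.14 ± 0.13. ZNF587 and ZNF417, close copies that bind HERV-K elements, had log2 fold changes of 0.10 ± 0.13 and -0.02 ± 0.16 with lupeol 80. ZNF611, which also binds SVA elements, had -0.01 ± 0.17 and ZNF808, known for silencing MER11 elements in pancreas development, had -0.13 ± 0.19.

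With lupeol 50, ZNF224, a corepressor partner studied with WT1, had 10.7, 12.1 and 11.1 CPM, against 16.8, 15.9 and 12.6 CPM in control. Its groups did not overlap, and the log2 fold change was -0.42 ± 0.18 with an adjusted p of 0.35 in edgeR. ZNF160 was likewise below every control with lupeol 50, at -0.25 ± 0.14 and an adjusted p of 0.46. The imprinted gene ZNF331 had 0.05 ± 0.16 with lupeol 50 and -0.17 ± 0.16 with lupeol 80. ZNF350, a partner of BRCA1, had 0.15 ± 0.20 and 0.23 ± 0.20 in that order of doses. ZNF420, a negative regulator of p53, had -0.29 ± 0.28 and -0.33 ± 0.28. ZNF304, which recruits TRIM28 to silenced genes in colorectal cancer cells, had 0.14 ± 0.17 and -0.28 ± 0.17, and its 3 lupeol 80 libraries lay below every control. ZNF175, ZNF382 and ZNF649 ranged from -0.32 to 0.05 over both doses.

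Domain class and GC content went together. Members with a KRAB A box had a median transcript GC content of 43.8%, and those with no match 60.6%. With lupeol 80 against control, the KRAB members had a median log2 fold change of 0.02, with 94 of 174 above 0. Those with no match had a median of -0.07, with 25 of 39 below 0. Without lupeol 80 replicate 1 the order of the classes turned, with medians of -0.10 for the KRAB members and -0.04 for the others (23 of 39 below 0), and with length and GC trends removed they were -0.12 and -0.03 (20 of 39 below 0). With all libraries kept, ZNF genes on other chromosomes had medians of 0.005 with a KRAB A box (70 genes) and -0.09 with no match (138 genes). Among the 71 members of lowest GC content, 51 lay above 0, with a median of 0.10. Of the 71 in the middle, 37 lay above 0, and of the 71 of highest GC content 20 did, with a median of -0.13.

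Of the 20 members with no KRAB match and over 60% GC, 17 lay below 0, with a median of -0.24. All genes tested over 60% GC did the same in 1980 of 2456 cases, with a median of -0.26. Across the 213 members, Spearman's rho between GC content and the log2 fold change was -0.39 (Pearson -0.33). Across 17173 genes with a GC content it was -0.51 (Pearson -0.41). For lupeol 50 against control rho was 0.008 over members and -0.22 over all genes. These are correlations across genes that share the same libraries, and genes are not replicates.

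**Figure D3:**
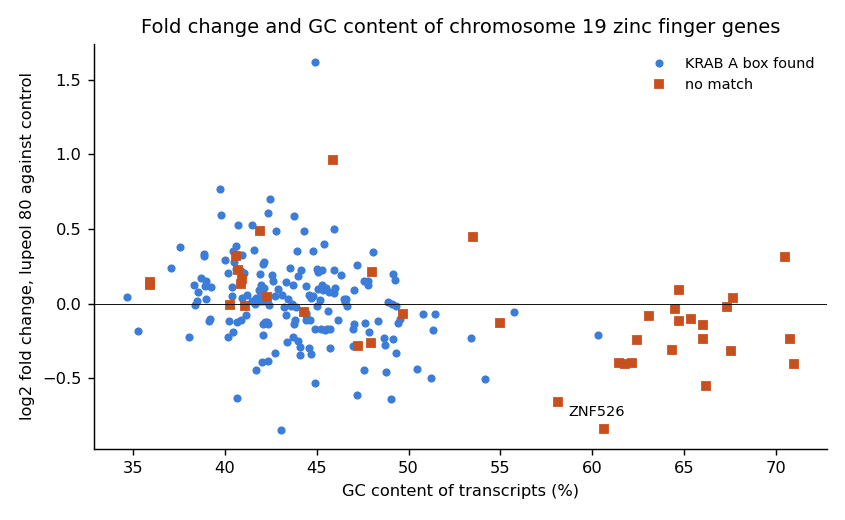
Log2 fold change of lupeol 80 against control (y) by transcript GC content in % (x), 1 point for each of 213 members, coloured by KRAB match. Members over 60% GC mostly lie below 0, and ZNF526 is marked at -0.66.

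These counts changed when lupeol 80 replicate 1 was left out. Over all genes, the slope of log2 level per 10% of GC content ran from 0.047 to 0.13 in control and from -0.029 to 0.088 in lupeol 50. It was -0.26 in lupeol 80 replicate 1 and -0.013 and -0.10 in replicates 2 and 3. Without that library, 25 of the 71 members of lowest GC content lay above 0, with a median of -0.08, where 51 had done so with it. The members of highest GC content had 22 of 71 above 0, with a median of -0.11. The KRAB members then had 57 of 174 above 0 and a median of -0.10, and all members 73 of 213 and a median of -0.09. The 17 of 20 high-GC members below 0 became 12 of 20, with a median of -0.06. Without lupeol 80 replicate 2 they were 19 of 20, with a median of -0.40, and with length and GC trends removed 8 of 20, with a median of 0.01. The sign of the KRAB median thus turned without lupeol 80 replicate 1. Without lupeol 80 replicate 2 the KRAB median was 0.09, with 107 of 174 above 0. With length and GC trends removed and all libraries kept, the median over all members was -0.10 and that of the KRAB members -0.12, with 54 of 174 above 0. All genes then had a median of 0.004.

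By library, the median log2 deviation of members from their mean over the 9 libraries was 0.07 in control 1, 0.05 in control A and -0.03 in control B. It was -0.03, 0.009 and -0.03 in lupeol 50 replicates 1 to 3, and 0.18, -0.12 and 0.04 in lupeol 80 replicates 1 to 3. The lupeol 80 libraries thus held both the highest and the lowest value. The same median over all genes tested lay between 0.0007 and 0.03 in every library. In lupeol 80 replicate 1 the KRAB members stood at 0.21, members with no match at -0.33, and other chromosome 19 genes at -0.27. ZNF genes on other chromosomes with a KRAB A box stood near the KRAB members there, at 0.18, and those with no match at -0.02. In lupeol 80 replicate 2 the KRAB members stood at -0.13 and the KRAB genes of other chromosomes at -0.11. The pattern of the KRAB members in these 2 libraries was thus not particular to chromosome 19.

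Replicate 1 of lupeol 80 held the highest of the 9 values for 66 members, 31.0% against 20.2% of all genes. Replicate 2 held the lowest for 53 members, 24.9% against 7.60% of all genes. Of the members with no KRAB match, 15 of 39 were lowest in replicate 1, 38.5% against 19.6% of all genes. The pair of libraries farthest apart over the members was lupeol 80 replicates 1 and 2, with a median absolute log2 difference of 0.42, and the closest was control 1 and control A at 0.16. The median SD of a member's log2 CPM was 0.17 within control, 0.18 within lupeol 50 and 0.27 within lupeol 80. Over all genes these were 0.18, 0.18 and 0.26 in the same order. Lupeol 80 replicate 1 also had the most counts (38430299) and the most genes detected (26285, against 23472 to 25309 in the others). The part of depth or of the GC trend in these differences was not tested beyond the values above.

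**Figure D4:**
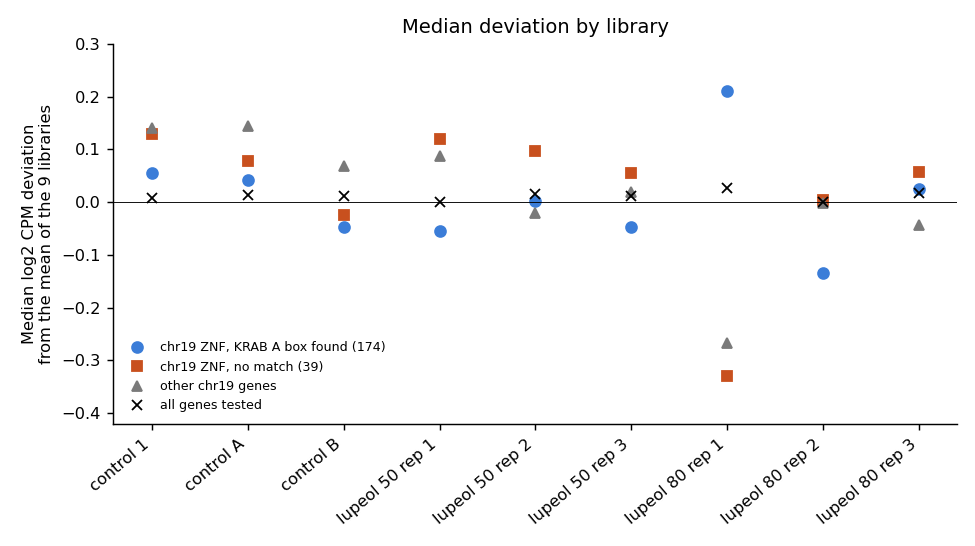
Median log2 CPM deviation from the mean of the 9 libraries (y) for 4 gene sets, by library (x) in order of dose. Lupeol 80 replicate 1 has KRAB members at 0.21 and members with no match at -0.33, while all genes tested stay near 0 in each library.

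Summed over members, levels were 2868, 2820 and 2788 CPM in control, 2781, 2886 and 2777 CPM with lupeol 50, and 3049, 2594 and 2869 CPM with lupeol 80. The means were 2825 ± 40.4, 2815 ± 61.9 and 2837 ± 229 CPM in the same order (SD), closer than the spread within lupeol 80. The KRAB members summed to 2348, 1832 and 2044 CPM with lupeol 80, against 2057, 2051 and 1992 CPM in control. Those with no match summed to 701, 762 and 825 CPM with lupeol 80, against 811, 770 and 796 CPM in control. In both classes the lupeol 80 libraries spanned or overlapped control. With lupeol 50 the KRAB members summed to 1949, 2046 and 1958 CPM and overlapped control. Those with no match summed to 832, 841 and 819 CPM with lupeol 50, above every control library, and this difference was not tested. ZNF146, the highest of them, had 146, 177 and 163 CPM with lupeol 50, against 130, 122 and 145 CPM in control. By gene, 20 of the 39 lay above 0 with lupeol 50 against control, with a median log2 fold change of 0.002, so the sum does not show a rise across the class.

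Along the chromosome, members fell into 16 groups split at gaps over 1 Mb. The largest ran from ZNF628 to ZNF446 (chr19:55476617-58481230) with 53 members near the end of the long arm. With lupeol 80 against control, 16 of its 53 members lay above 0 and the median was -0.13; without lupeol 80 replicate 1, 17 did and the median was -0.11. With length and GC trends removed, 22 did and the median was -0.05. The group from ZNF575 to ZNF296 had 6 of 22 above 0 with a median of -0.11, and 5 of 22 without that library; with the trends removed its median was -0.19. The group from ZNF653 to ZNF791 went the other way, with 16 of 20 above 0 and a median of 0.19, and 13 of 20 and 0.10 without that library. Without lupeol 80 replicate 2 its median was 0.30 (16 of 20), and with length and GC trends removed 0.05 (12 of 20).

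The group from ZNF101 to ZNF254, which holds ZNF91 and ZNF93 and has the low median GC content of 39.99%, had 20 of 29 members above 0 and a median of 0.07. Without lupeol 80 replicate 1 it had 9 of 29 above 0 and a median of -0.09. The group from ZNF175 to ZNF331 likewise had 21 of 35 above 0, and 7 of 35 without that library. With length and GC trends removed, 4 of 29 and 8 of 35 lay above 0. With lupeol 50 against control these groups had 7 of 29 and 14 of 35 above 0. Neighbours share ancestry and GC content, and no group was tested as such.

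**Figure D5:**
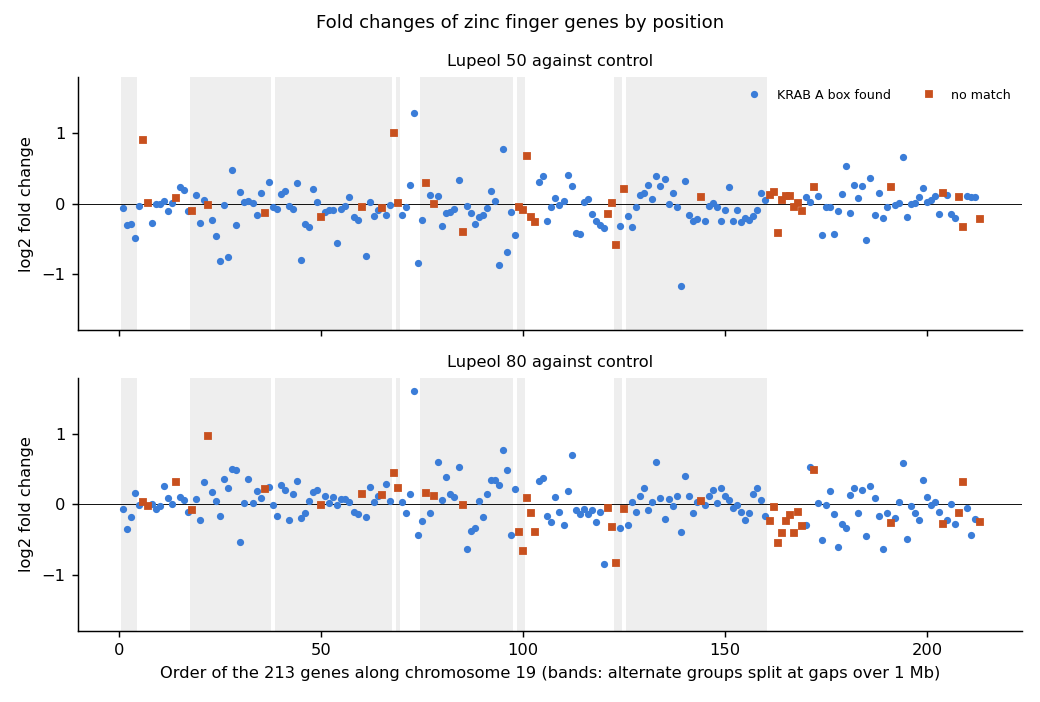
Log2 fold change (y) of each member in its order along chromosome 19 (x), for lupeol 50 against control (upper) and lupeol 80 against control (lower). Grey bands mark alternate groups split at gaps over 1 Mb; most points of the last group, at the right end, lie below 0 with lupeol 80 (37 of 53), and the high point is ZNF30 at 1.62.

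A list of the KRAB repressor machinery held 53 symbols, of which 52 were found and tested. The symbol not found, LSH, is another name of HELLS, which was tested. None was called by edgeR in any contrast. With lupeol 80 against control 24 lay above 0 and 28 below, with a median of -0.03 and 18 at an unadjusted p under 0.05 (34.6%, against 19.5% of all genes). TRIM28, the shared corepressor, had 552, 702 and 730 CPM with lupeol 80, against 710, 664 and 644 CPM in control, a log2 fold change of -0.02 ± 0.12. Lupeol 80 replicate 1 was again the one apart. SETDB1 had 89.96, 85.4 and 68.9 CPM with lupeol 80, against 87.3, 92.4 and 90.1 CPM in control. The smallest adjusted p was that of HELLS, a chromatin remodelling ATPase, at 0.060 in edgeR, with 73.2, 52.7 and 64.6 CPM with lupeol 80, against 48.5, 44.8 and 40.2 CPM in control. Its lupeol 80 libraries all stood above control, with a log2 fold change of 0.51 ± 0.13. The next 2 by p went the other way, with all lupeol 80 libraries below control. They were CHD3 at -0.48 ± 0.13 and KDM4A at -0.44 ± 0.12, each with an adjusted p of 0.075 in edgeR. With lupeol 50 against control, 20 lay above 0 and 32 below, and 3 had an unadjusted p under 0.05 (5.77%, against 12.4% of all genes).

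The labelled cell type was checked on 14 markers listed for monocytic THP-1 cells, not all of them particular to monocytes, and 13 exceeded 1 CPM. Their sums were 2916 to 3668 CPM in control, 2606 to 3000 CPM with lupeol 50 and 2986 to 3314 CPM with lupeol 80. The marker that did not was CD68, at 0.075 to 0.46 CPM. ELANE was the highest of the 14, at 1059 to 1899 CPM, and weighs most in the sums. CD14 stood at 8.38 to 19.7 CPM. Markers of T cells (5), erythroid cells (5) and epithelium (5) reached 1 CPM in no library. Of 4 B cell markers 2 did, with sums of 4.14 to 4.79 CPM in control, 1.97 to 3.99 CPM with lupeol 50 and 1.86 to 3.04 CPM with lupeol 80, and 1 of 5 fibroblast markers did.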

How the data were processed

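RNA-seq of 9 THP-1 libraries was deposited by the authors as 1 table of raw counts per gene, whole numbers with no normalization. Bowtie 0.12.2 and the mouse build mm8 are named in the submitters' processing notes. The table holds human Ensembl IDs, of which 35993 match GENCODE 29 (GRCh38) in ID and position, which conflicts with that build. Of the 213 members, 10 share ID version and position with it, while all 213 overlap the gene of the same ID there. For the counting tool and its use of strand nothing is stated in the sources used here. The 2 control columns with the same heading are called control A and B. A gene with empty values (1) was left out.

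Symbols came from a table of Ensembl IDs. After filterByExpr (17568 genes) and TMM scaling, counts were tested in edgeR 4.0.16 (R 4.3.3; limma 3.58.1, DESeq2 1.42.0 as alternatives) by the quasi-likelihood F test, robust, with all 9 libraries and a term per group, and adjusted by Benjamini-Hochberg over all genes. A member was called at an adjusted p under 0.05. The test was checked on simulated data. CPM are TMM-scaled, computed here, and library deviations use log2 CPM with a prior count of 2. GC content, fingers and KRAB came from GENCODE 29 transcripts and their translation, used in place of a RefSeq protein table, which was not used here. Reads carry no molecular identifiers. Spreads cover these libraries only, since the labels do not say whether replicates are separate cultures.

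Named genes are the called members and the 5 of smallest p in each contrast, the 10 highest and 5 lowest per kb in control, and 16 of known background. The members and lists were chosen with earlier results of these data known. Alternatives were RLE and no scaling, other filters, DESeq2, limma-voom, 2 groups only, length and GC trends removed (splines of 4 degrees of freedom), and libraries left out.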

Additional observations from a re-analysis of the deposited data

Results flagged for a closer look

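ZNF134 stood at 23.3, 22.3 and 25.2 CPM in control. Every lupeol 50 library lay above these (27.2, 30.2 and 26.03 CPM) and every lupeol 80 library below them (20.8, 19.1 and 18.95 CPM). It was the only one of the 213 members whose doses lay on opposite sides of control in all libraries, or 0.469% of them, against 86 of all 17568 genes tested, or 0.49%. The difference between doses was a log2 fold change of -0.50 ± 0.13 (lupeol 80 against lupeol 50) with an adjusted p of 0.099 in edgeR, so it did not pass the test. DESeq2 gave an adjusted p of 0.015, and over its alternatives the adjusted p ran from 0.015 to 0.32. Against control, lupeol 50 gave 0.24 ± 0.13 and lupeol 80 gave -0.27 ± 0.13.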

How the results depend on the processing

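For lupeol 50 against control, members called numbered 0, and 1 with no filter on low counts, 1 with DESeq2 and 0 to 1 with a library left out. Without both control B and lupeol 80 replicate 1 they numbered 4 of 213 (ZNF224, ZNF358, ZNF536 and ZNF792), against 913 of 17974 genes tested. For lupeol 80 against control, 1 became 3 with no filter and 3 with DESeq2 (ZNF432, ZNF526 and ZNF529 in both), 0 with length and GC trends removed, 0 with the 2 groups alone, and 0 to 1 with a library left out. For lupeol 80 against lupeol 50, 0 became 2 with no filter and 2 with DESeq2. For any difference among the 3 groups, 0 became 5 with no filter, 2 without both libraries, and 0 to 1 with a library left out. With length and GC trends removed, 31 of 17568 genes were called for lupeol 80 against control. Where no share over all genes is given for a setting, as with no filter, the count is not read as a result about the members. The cause of these changes was not tested. The median log2 fold change for lupeol 80 against control was 0.01, but -0.10 with length and GC trends removed and -0.11 without both libraries, and it ran from -0.087 to 0.069 with a library left out. RLE factors and unscaled totals changed no count by more than 1.5 times. No paired analysis was possible because the labels give the groups no shared replicate numbers. Leaving out members by protein identity was not run; leaving out the 41 that share sequence, chosen after seeing the data, gave a median of -0.005. Depth limits the members near 90 counts.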
